A study of Danio rerio with 12 samples.

Results

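Eph receptors and their ephrin ligands were examined in the RNA of whole zebrafish embryos at the 10 somite stage. Eph receptors are receptor tyrosine kinases, and ephrins are ligands held in the membrane of the neighbouring cell. A-type ephrins are attached by a lipid anchor and B-type ephrins span the membrane, and contact sends signals into both cells. In the hindbrain and in the somites of vertebrates, receptors and ligands lie on opposite sides of segment borders, where they keep cells apart and sharpen the border. Members were chosen by name: every gene row whose name begins with eph or efn, then a or b and a digit. This gave 34 of 31051 gene rows, 20 for receptors (12 of type EphA and 8 of type EphB) and 14 for ligands (8 ephrin-A and 6 ephrin-B). A low-count filter applied to the whole table kept 29 of the 34.

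The study crossed prdm1 genotype with morpholino injection in embryos of the AB strain. Morpholinos are synthetic antisense oligomers that keep a chosen RNA from being spliced or translated. All embryos received one as a single cell, so the controls carry a morpholino too. Double embryos were prdm1-/- with pbx2/4 morpholinos, pbx2/4 morphants were prdm1+/+ with the same morpholinos, prdm1 mutants were prdm1-/- with a control morpholino, and controls were prdm1+/+ with the control morpholino. Each group had 3 libraries, 12 in all, and each library came from RNA of genotyped single embryos that was then pooled. The series' design text gives independent rounds of egg collection with injection. The labels name neither the mutant allele nor the number of embryos in a pool. The gene prdm1a codes for a zinc-finger repressor that slow muscle requires, and pbx2 and pbx4 encode homeodomain partners of Hox proteins. Column names take 3 forms, and libraries named alike make up sets A, B and C, each with 1 library of every group. In fits with a block, the set is a term of the model.

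Estimated counts totalled 9059663 to 17236848 per library, and 1 count corresponded to 0.0572 to 0.115 CPM (the usual count relative to the size of the library, with sizes scaled by the TMM method). prdm1a (ENSDARG00000002445) had 218 to 239 CPM in double embryos, 110 to 129 CPM in pbx2/4 morphants, 132 to 144 CPM in prdm1 mutants and 94.8 to 113 CPM in controls. pbx2 (ENSDARG00000019717) had 225 to 316 CPM in the 6 injected with pbx2/4 morpholinos, against 43.0 to 67.7 CPM in the 6 without, and pbx4 (ENSDARG00000052150) had 355 to 494 CPM against 275 to 361 CPM. RNA levels say nothing here of how much protein was lost. Levels here are whole-embryo levels, so fewer cells of a type and less RNA per cell cannot be told apart. CPM is not corrected for gene length, so levels are compared between samples and not between genes.

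The effect of the pbx2/4 morpholinos was read in each genotype, in double embryos against prdm1 mutants and in morphants against controls. They share no library, though they share the 3 sets. Embryos with pbx2/4 morpholinos had less RNA of several EphA receptors, of the receptor ephb4a and of the ligands efna2 and efna3b. Of these, epha3l and epha4l passed edgeR's test of all 12 libraries without the block, and the others passed that test only with it. Most EphB receptors and most ephrins passed neither. DESeq2, also without the block, called more members in double embryos against prdm1 mutants, as given below, and as many as edgeR in morphants against controls. The share of all genes that DESeq2 called is not given here, so its counts are not read as a result about the members. In quasi-likelihood F tests of edgeR with Benjamini-Hochberg adjustment over 18117 genes, epha3l and epha4l fell in both comparisons, and 0 members rose in either. They were 2 of 29 members tested in each comparison, where the share of all genes called lower was 0.811% in double embryos against prdm1 mutants and 0.883% in morphants against controls. With the block, 9 members fell in double embryos against prdm1 mutants and 10 fell in morphants against controls, and again 0 rose, where 8.98% and 9.95% of all genes were called lower. The 8 members called with the block in both comparisons were epha3l, epha4a, epha4b, epha4l, epha7, ephb4a, efna2 and efna3b.

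**Figure D1:**
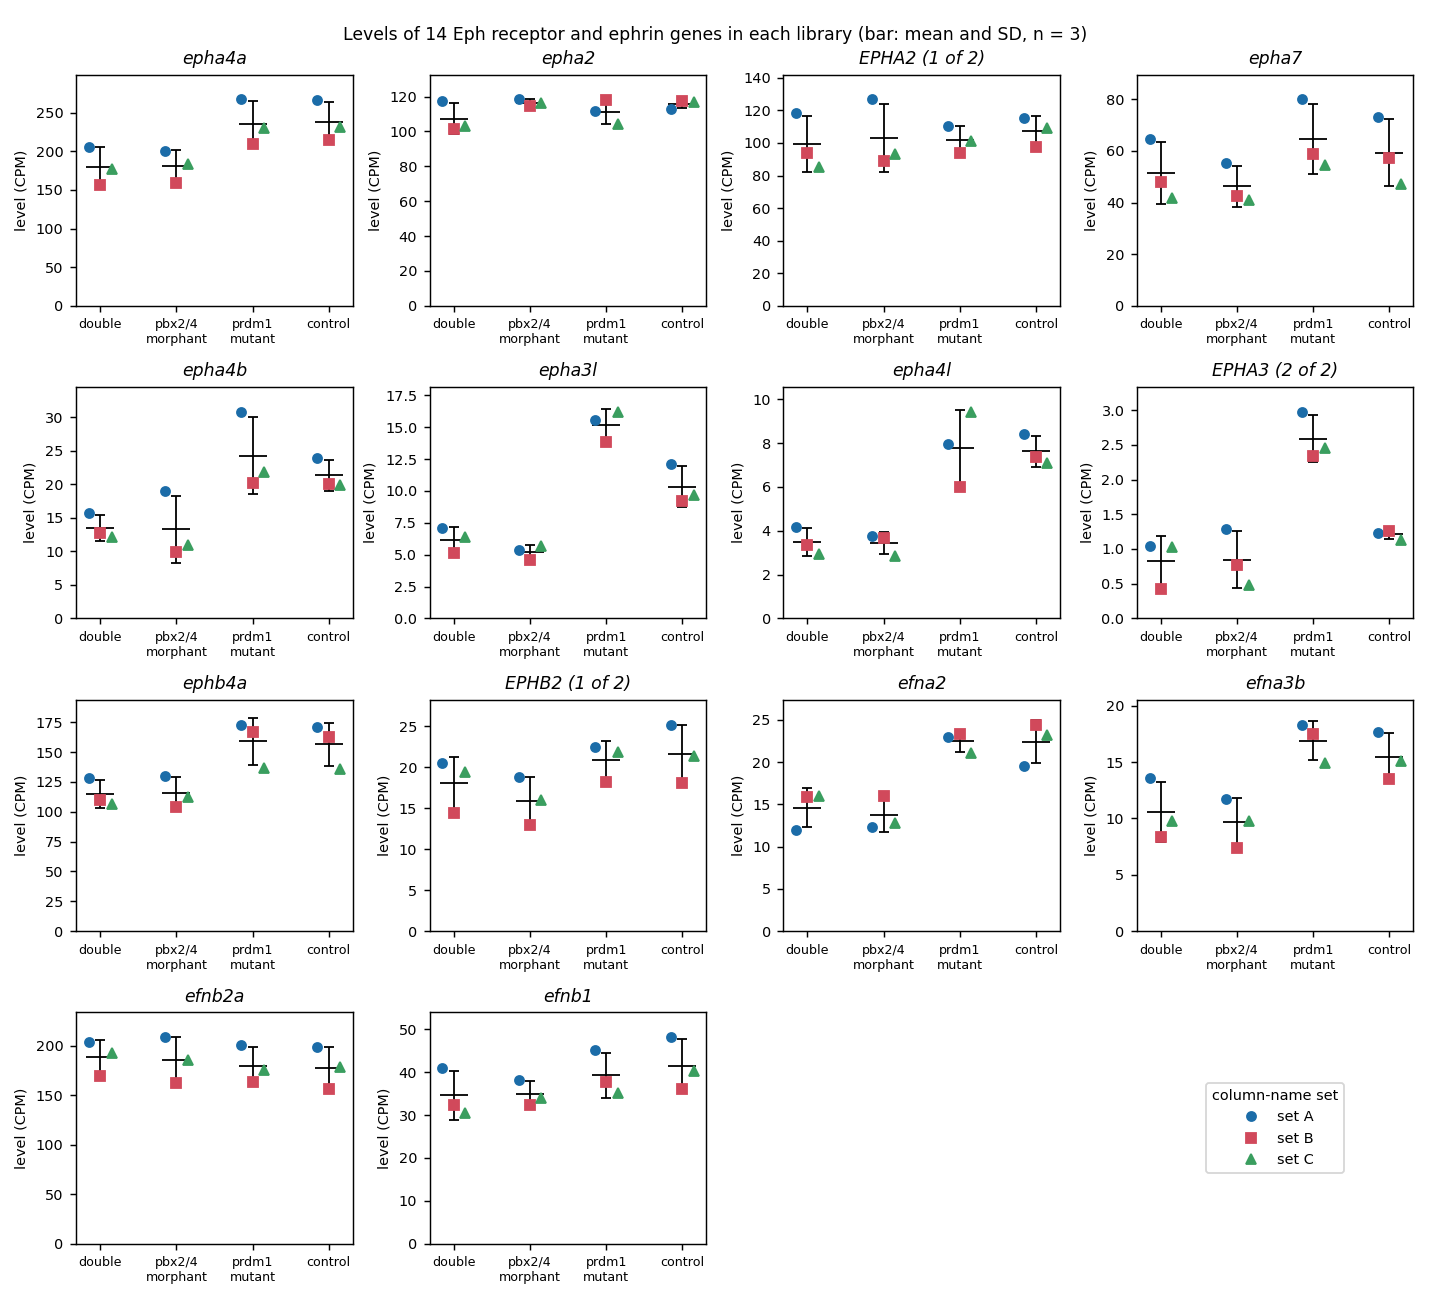
Level in CPM (vertical axis, from 0) of 14 members in each of the 12 libraries, by group, with points for sets A, B and C and a bar for the mean and SD of 3 libraries. In epha3l, epha4l, epha4a, epha4b, ephb4a and efna2 all 6 libraries with pbx2/4 morpholinos lie below all 6 without.

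epha3l (ENSDARG00000039373), named after EphA3, a receptor of axon guidance, had 7.06, 5.14 and 6.35 CPM in the double libraries of sets A, B and C and 5.39, 4.61 and 5.64 CPM in the morphant libraries. It had 15.6, 13.8 and 16.2 CPM in the prdm1 mutant libraries and 12.1, 9.18 and 9.70 CPM in the control libraries. The 6 libraries with pbx2/4 morpholinos thus lay below the 6 without them, and the prdm1 mutants lay above the controls. The log2 fold change was -1.29 in double embryos against prdm1 mutants (SE 0.18, edgeR adjusted p = 0.00347) and -0.98 in morphants against controls (SE 0.18, adjusted p = 0.0175). The second call was lost, with an adjusted p of up to 0.0852, without any single library of the 2 groups other than the control of set B, and with only those 2 groups in the fit (adjusted p = 0.0967). The first held in all 17 alternative settings.

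epha4l (ENSDARG00000010767), 1 of 3 rows named after EphA4, a receptor that binds both ephrin types, had 4.18, 3.35 and 2.92 CPM in the double libraries and 3.78, 3.65 and 2.85 CPM in the morphant libraries. It had 7.96, 6.01 and 9.42 CPM in the prdm1 mutant libraries and 8.44, 7.35 and 7.12 CPM in the control libraries. No library with pbx2/4 morpholinos reached the lowest without them. The log2 fold change was -1.18 in double embryos against prdm1 mutants (SE 0.22, edgeR adjusted p = 0.0231) and -1.16 in morphants against controls (SE 0.23, adjusted p = 0.0249). The second call was lost whichever library of its 2 groups was left out (adjusted p up to 0.119) and with only those 2 groups in the fit (adjusted p = 0.0756). The first was lost without the double or the prdm1 mutant library of set C, without the double library of set B or without the prdm1 mutant library of set A (adjusted p up to 0.126), and with only those 2 groups in the fit (adjusted p = 0.116).

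epha4a (ENSDARG00000054454) is the EphA4 gene of rhombomeres 3 and 5 in zebrafish, and in the mouse the gene for EphA4 is a direct target of the Egr2 (Krox20) protein there. It had 206, 157 and 178 CPM in the double libraries and 201, 159 and 184 CPM in the morphant libraries, against 268, 210 and 231 CPM in prdm1 mutants and 267, 214 and 231 CPM in controls. In each set both libraries with pbx2/4 morpholinos lay below both without. The log2 fold changes were -0.39 in both comparisons (adjusted p = 0.267 in double embryos against prdm1 mutants and 0.263 in morphants against controls). With the block the adjusted p was 9.83e-05 and 0.000102, with differences of -0.42 to -0.37 and of -0.43 to -0.33 within the sets. egr2b (ENSDARG00000042826), the Krox20 gene, had 0.0961 to 3.22 CPM with pbx2/4 morpholinos and 51.0 to 60.8 CPM without, over 6 libraries each. The log2 fold changes of egr2b were -4.96 and -5.34 (adjusted p = 0.00151 and 0.00168). Those of mafba (ENSDARG00000017121), a gene of rhombomeres 5 and 6, were -2.24 and -2.46 (adjusted p = 0.00229 and 0.00205). The part of egr2b in the level of epha4a was not tested.

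epha4b (ENSDARG00000011600), the third EphA4 row, had 15.7, 12.8 and 12.1 CPM in the double libraries and 19.0, 9.90 and 10.9 CPM in the morphant libraries. It had 30.8, 20.3 and 21.8 CPM in the prdm1 mutant libraries and 24.0, 20.1 and 20.0 CPM in the control libraries. The highest value with pbx2/4 morpholinos, that of the set A morphant, was just under the lowest without them. Its log2 fold change was -0.85 in double embryos against prdm1 mutants (adjusted p = 0.138, 0.000349 with the block) and -0.68 in morphants against controls (adjusted p = 0.253, 0.00123 with the block). With the block, the 95% interval of the log2 fold change in morphants against controls was -1.58 to -0.75 for epha4l, -0.97 to -0.45 for epha4b and -0.49 to -0.29 for epha4a, and the differences between these genes were not tested.

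epha7 (ENSDARG00000004635), a receptor of axon guidance, had 64.8, 47.8 and 41.8 CPM in the double libraries and 55.4, 42.5 and 41.1 CPM in the morphant libraries, against 80.0, 58.9 and 54.6 CPM in prdm1 mutants and 73.3, 57.4 and 47.3 CPM in controls. The groups overlapped, and set A was the highest in each, but within every set both libraries with pbx2/4 morpholinos lay below both without. The log2 fold changes were -0.33 and -0.36 (adjusted p = 0.668 and 0.594, 0.00369 and 0.00297 with the block). Both calls of epha7 with the block were lost without set A (adjusted p = 0.0647 in double embryos against prdm1 mutants and 0.0727 in morphants against controls). The row named EPHA3 (2 of 2) (ENSDARG00000090974) was not matched by its ID to the gene tables used here, where RefSeq gives epha3l as a synonym of the gene epha3. Whether the 2 rows are separate genes or pieces of 1 gene could not be told, and they are counted here as 2 members. EPHA3 (2 of 2) rested on 4 to 37 counts per library. It had 1.05, 0.419 and 1.03 CPM in the double libraries, against 2.97, 2.34 and 2.46 CPM in prdm1 mutants, and 1.29, 0.769 and 0.475 CPM in the morphant libraries, against 1.23, 1.26 and 1.13 CPM in controls. Its log2 fold change was -1.59 in double embryos against prdm1 mutants (SE 0.38, adjusted p = 0.065, 0.00375 with the block and 0.0617 with the block and without set A) and -0.54 in morphants against controls (adjusted p = 0.707, 0.304 with the block).

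Of the EphB receptors, ephb4a (ENSDARG00000040346), a receptor of veins and of hindbrain segments that binds ephrin-B2, had 128, 110 and 107 CPM in the double libraries and 130, 104 and 112 CPM in the morphant libraries. It had 173, 167 and 137 CPM in the prdm1 mutant libraries and 171, 163 and 136 CPM in the control libraries. All 6 libraries with pbx2/4 morpholinos lay below all 6 without. Its log2 fold changes were -0.47 and -0.44 (adjusted p = 0.146 and 0.174, 0.000557 and 0.000892 with the block). Its paralog ephb4b had a log2 fold change of 0.07 in morphants against controls, with a 95% interval of -0.06 to 0.21 with the block. EPHB2 (1 of 2) (ENSDARG00000021539), a receptor of axon guidance, had 20.5, 14.5 and 19.4 CPM in the double libraries against 22.4, 18.1 and 21.9 CPM in prdm1 mutants, and 18.8, 13.0 and 16.0 CPM in the morphant libraries against 25.2, 18.1 and 21.4 CPM in controls. The log2 fold changes were -0.20 and -0.44 (adjusted p = 0.811 and 0.367, 0.136 and 0.00392 with the block). With the block and without set A, the call in morphants was just lost (adjusted p = 0.05). The difference between these 2 effects was 0.24 (SE 0.26, adjusted p = 1 in the test of the interaction).

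Of the ephrins, efna2 (ENSDARG00000031372), a ligand of EphA receptors graded across the tectum in vertebrates, had 11.9, 15.9 and 16.0 CPM in the double libraries and 12.3, 16.1 and 12.8 CPM in the morphant libraries. It had 23.0, 23.4 and 21.0 CPM in the prdm1 mutant libraries and 19.6, 24.5 and 23.2 CPM in the control libraries. The groups with and without pbx2/4 morpholinos did not overlap. Its log2 fold changes were -0.62 and -0.71 (SE 0.16 each, adjusted p = 0.0911 and 0.053, 0.00161 and 0.000586 with the block). With the block and without set A, the adjusted p in double embryos against prdm1 mutants was 0.0617. The second row of that name, EFNA2 (2 of 2), had -0.05 and -0.12. efna3b (ENSDARG00000032485) had 13.6, 8.39 and 9.79 CPM in the double libraries and 11.7, 7.40 and 9.80 CPM in the morphant libraries, against 18.3, 17.5 and 14.9 CPM in prdm1 mutants and 17.7, 13.5 and 15.1 CPM in controls. Only the double library of set A, at 13.6 CPM, reached the lowest library without the morpholinos. Its log2 fold changes were -0.67 and -0.68 (adjusted p = 0.18 and 0.177, 0.00262 and 0.00274 with the block). efnb1 (ENSDARG00000007723), a B-type ligand, had 41.0, 32.4 and 30.4 CPM in the double libraries and 38.3, 32.4 and 34.0 CPM in the morphant libraries, against 45.1, 37.6 and 35.1 CPM in prdm1 mutants and 48.2, 36.2 and 40.4 CPM in controls. The groups overlapped, and its log2 fold changes were -0.18 and -0.25 (adjusted p = 0.779 and 0.607, 0.118 and 0.0377 with the block). The call of efnb1 in morphants was lost when set A, B or C was left out of the fit with the block (adjusted p = 0.262, 0.0611 and 0.144).

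**Figure D2:**
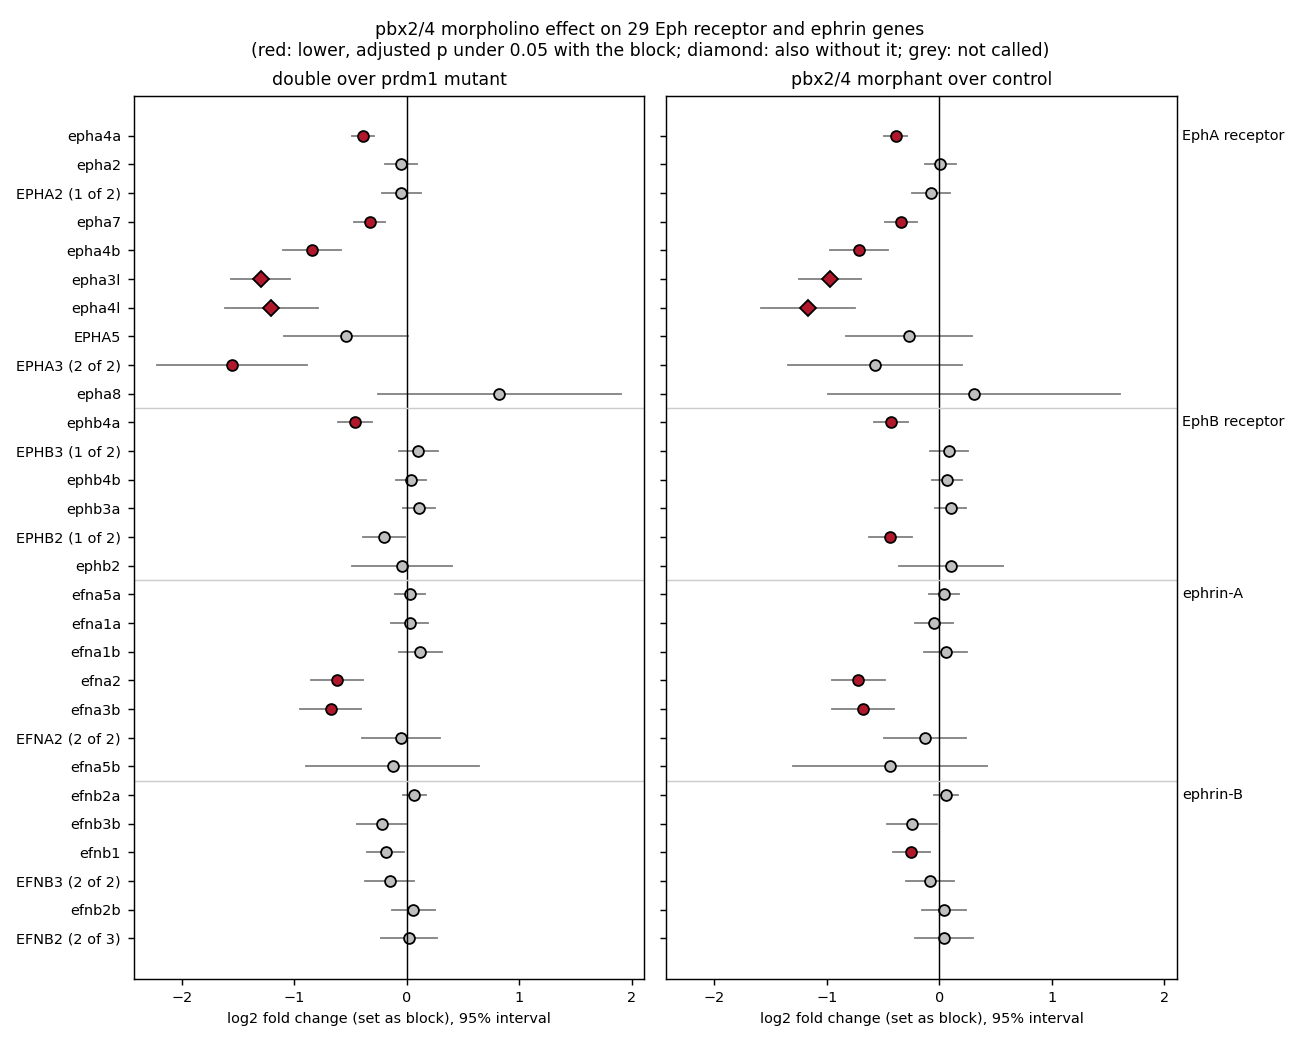
Log2 fold change with the set as a block (horizontal axis) and its 95% interval for the 29 members tested, for double embryos over prdm1 mutants and morphants over controls. Red points were called lower with the block, and the 2 diamonds, epha3l and epha4l, also without it. No member was called higher.

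Of the 5 members with the highest CPM, efnb2a, epha2 and EPHA2 (1 of 2) had small changes. efnb2a (ENSDARG00000020164), the ephrin-B2 ligand of the posterior part of each somite and of rhombomeres that adjoin those with epha4a, had 204, 169 and 193 CPM in the double libraries and 209, 163 and 186 CPM in the morphant libraries. It had 201, 164 and 176 CPM in the prdm1 mutant libraries and 199, 157 and 178 CPM in the control libraries. Its log2 fold changes were 0.07 and 0.06 (adjusted p = 0.95 and 0.932), with 95% intervals of -0.03 to 0.17 and -0.04 to 0.16 with the block. epha2 (ENSDARG00000017354), a receptor of epithelia, had 117, 101 and 103 CPM in the double libraries and 118, 115 and 116 CPM in the morphant libraries, against 112, 118 and 104 CPM in prdm1 mutants and 113, 118 and 117 CPM in controls. The 95% intervals with the block were -0.19 to 0.09 and -0.13 to 0.15. EPHA2 (1 of 2) (ENSDARG00000022727) had 119, 93.9 and 85.2 CPM in the double libraries and 127, 88.8 and 93.3 CPM in the morphant libraries, against 111, 93.7 and 101 CPM in prdm1 mutants and 115, 97.5 and 109 CPM in controls. Its 95% intervals were -0.22 to 0.12 and -0.25 to 0.09. Counts of EPHA2 (1 of 2) were not whole in 6 of 12 libraries.

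Over the 29 members tested, 17 were lower in both morpholino comparisons, 9 were higher in both and 3 differed in direction, and over all 18117 genes 6717 were lower in both and 7404 higher in both. All 6 within-set differences were negative for 10 members, against 15.3% of all genes, and positive for 2, efnb2a and ephb4b, against 14.5%. All 3 libraries were lower for 8 members in double embryos against prdm1 mutants, where the share of all genes was 7.99%, and for 7 members in morphants against controls, where it was 8.50%. All 6 libraries with pbx2/4 morpholinos lay below all 6 without for 6 members, epha3l, epha4a, epha4b, epha4l, ephb4a and efna2, against 3.71% of all genes.

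**Figure D3:**
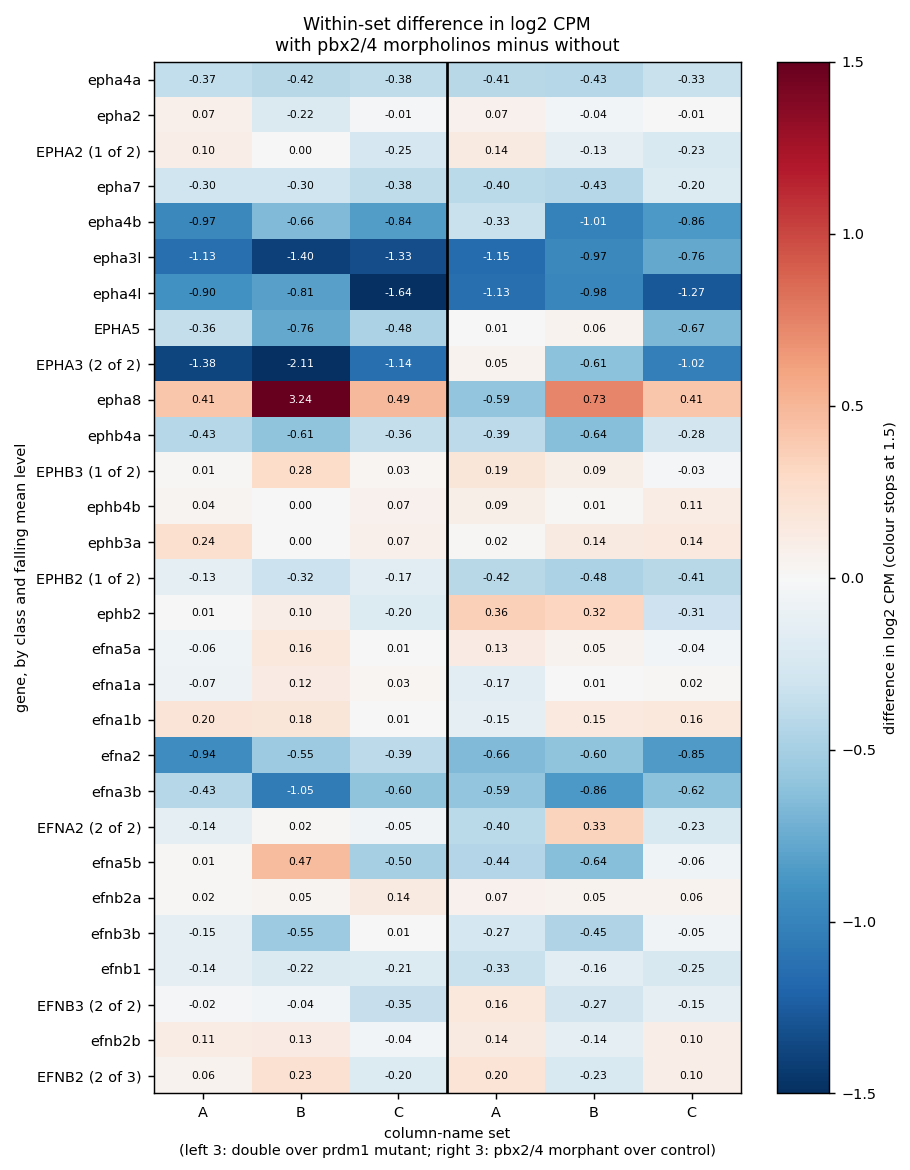
Difference in log2 CPM within each set between the library with pbx2/4 morpholinos and the one without, for the 29 members tested (rows) in both genotypes (columns). Blue is lower and red higher with the morpholinos, and the blue rows with 6 negative values include epha3l, epha4l, epha4a, epha4b, epha7, ephb4a, efna2 and efna3b.

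By class, with the block and against 8.98% and 9.95% of all genes called lower in the 2 comparisons, 6 of 10 EphA receptors tested fell in double embryos against prdm1 mutants and 5 in morphants against controls, with a median log2 fold change, without the block, of -0.46 and -0.37. Of 6 EphB receptors 1 and 2 fell, with medians of 0.00 and 0.08. Of 7 ephrin-A ligands 2 fell in each, with medians of -0.05 and -0.12, and of 6 ephrin-B ligands 0 and 1 fell, with medians of -0.06 and -0.02. The median over all genes tested was 0.01 in both comparisons. Summed over its 12 rows, the EphA class had 425 to 540 CPM in double embryos, 427 to 535 CPM in morphants, 525 to 632 CPM in prdm1 mutants and 527 to 619 CPM in controls. The EphB class, over 8 rows, had 308 to 427, 316 to 436, 334 to 459 and 342 to 460 CPM in the same groups. The groups overlapped in both sums, with set A the highest in all 4 groups. Within each set both libraries with pbx2/4 morpholinos lay below both without, for EphA and for EphB. The EphB sum averaged 358 CPM in morphants and 391 CPM in controls, and ephb4a alone 116 and 157 CPM. In double embryos and prdm1 mutants the sum averaged 352 and 388 CPM, and ephb4a 115 and 159 CPM. The fall of the EphB sum was thus no larger than that of ephb4a. The EphA sum averaged 473 CPM in morphants and 564 CPM in controls, and epha4a alone 181 and 238 CPM. For double embryos and prdm1 mutants the EphA sum averaged 466 and 567 CPM, and epha4a 180 and 236 CPM.

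The other members tested were called in no comparison by either fit. They were EPHA5 and epha8 among the EphA receptors, EPHB3 (1 of 2), ephb3a, ephb4b and ephb2 among the EphB receptors, efna5a, efna1a, efna1b, EFNA2 (2 of 2) and efna5b among the ephrin-A ligands, and efnb2b, EFNB2 (2 of 3), efnb3b and EFNB3 (2 of 2) among the ephrin-B ligands. efna5a, a ligand of posterior tectum, had 70.3 to 84.5 CPM with pbx2/4 morpholinos and 66.9 to 86.8 CPM without, over 6 libraries each. Its 95% interval with the block was -0.09 to 0.18 in morphants against controls. EPHA5, epha8 and efna5b rested on 0 to 38 counts per library and their intervals were wide, such as -0.99 to 1.60 for epha8 in morphants against controls. The counts of ephb2 were not whole in 12 libraries, those of EFNB2 (2 of 3) in 9, of efnb2b in 8, of efna3b in 6 and of epha4b in 2. How estimated counts were split between near-identical genes is not given, so levels of these rows are uncertain.

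The 5 members below the filter were efna3a, epha6, EPHA10 (1 of 2), EPHB1 and EPHB6. The first 4 had 15 to 51 counts over all 12 libraries. EPHB6, named after a receptor without kinase activity, had 0 counts in each, which allows a level of up to 0.172 to 0.344 CPM per library at 3 counts (counting error only).

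The comparison of double embryos with controls joined both perturbations. In edgeR's test 1 of 29 members was called, epha4l, with a log2 fold change of -1.13 and an adjusted p of 0.0212 (SE 0.23), where 1.41% of all genes were called lower. Leaving out the control of set A or that of set C, or the double library of set B or that of set C, ended this call (adjusted p up to 0.088), as did a fit of these 2 groups alone (adjusted p = 0.0669). epha3l had -0.74 (adjusted p = 0.0533, 0.00124 with the block) and efna2 -0.62 (adjusted p = 0.0742, 0.00146 with the block). The highest log2 fold change was 1.19, for epha8, which rested on 0 to 32 counts per library and was called by neither fit. With the block 9 members fell and 0 rose, where 10.8% of all genes were called lower: epha3l, epha4a, epha4b, epha4l, epha7, ephb4a, efna2, efna3b and efnb1. Of these calls, that of epha7 was lost without set A, B or C (adjusted p = 0.186, 0.158 and 0.122), that of efnb1 without set A or C (adjusted p = 0.12 and 0.222) and that of efna3b without set C (adjusted p = 0.0917). This comparison shares its controls with that of the morphants, and the double libraries with the comparison against prdm1 mutants.

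Loss of prdm1 was read in double embryos against pbx2/4 morphants and in prdm1 mutants against controls. Of the 29 members 0 were called in either by edgeR without the block, by DESeq2 or by limma-voom, where edgeR called 0.149% of all genes in double embryos against morphants and 0.193% in prdm1 mutants against controls. At an unadjusted p under 0.05 edgeR had 2 members in prdm1 mutants and 0 in double embryos against morphants. The 2 were epha3l and EPHA3 (2 of 2). The share of all genes under that unadjusted threshold is not given here. These counts are thus not read as a result about the members. In prdm1 mutants epha3l averaged 15.2 ± 1.24 CPM, against 10.3 ± 1.58 CPM in controls (SD, n = 3 each), and every mutant library lay above every control. The log2 fold change of epha3l was 0.56 (SE 0.17, adjusted p = 0.922), and its within-set differences were 0.36 to 0.73. With the block it was the 1 member that rose (adjusted p = 0.0299), where 0.491% of all genes were called higher. That call was lost when set A, B or C was left out of the fit with the block (adjusted p = 0.18, 0.136 and 0.595). EPHA3 (2 of 2) averaged 2.59 ± 0.339 CPM in prdm1 mutants and 1.21 ± 0.0680 CPM in controls, a log2 fold change of 1.10 (SE 0.37, adjusted p = 1, 0.138 with the block), with differences of 0.81 to 1.17 inside the sets. All 3 mutant libraries lay above all 3 controls for these 2 rows and for EFNB2 (2 of 3), against 2.64% of all genes.

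In double embryos against morphants epha3l had a log2 fold change of 0.24 and EPHA3 (2 of 2) one of 0.05, with 95% intervals with the block of -0.05 to 0.53 and -0.69 to 0.91. With the block 0 of 29 members were called there, where 1.20% of all genes were. The 29 members ranged from -0.09 to 1.10 in prdm1 mutants against controls and from -0.12 to 0.89 in double embryos against morphants. For epha4a, which averaged 236 ± 29.1 CPM in prdm1 mutants and 238 ± 27.0 CPM in controls, the 95% interval of the log2 fold change with the block was -0.11 to 0.09. That of efnb2a was -0.09 to 0.12 and that of ephb4a -0.13 to 0.17. In the test of the interaction, the prdm1 effect in morphants minus that in control-injected embryos, 0 of 29 members and 0% of all genes were called by edgeR with or without the block. DESeq2 and limma-voom called 0 members as well, and 0 members had an unadjusted p under 0.05 in any of these tests. The values ran from -1.05 for EPHA3 (2 of 2) to 0.55 for epha8.

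**Figure D4:**
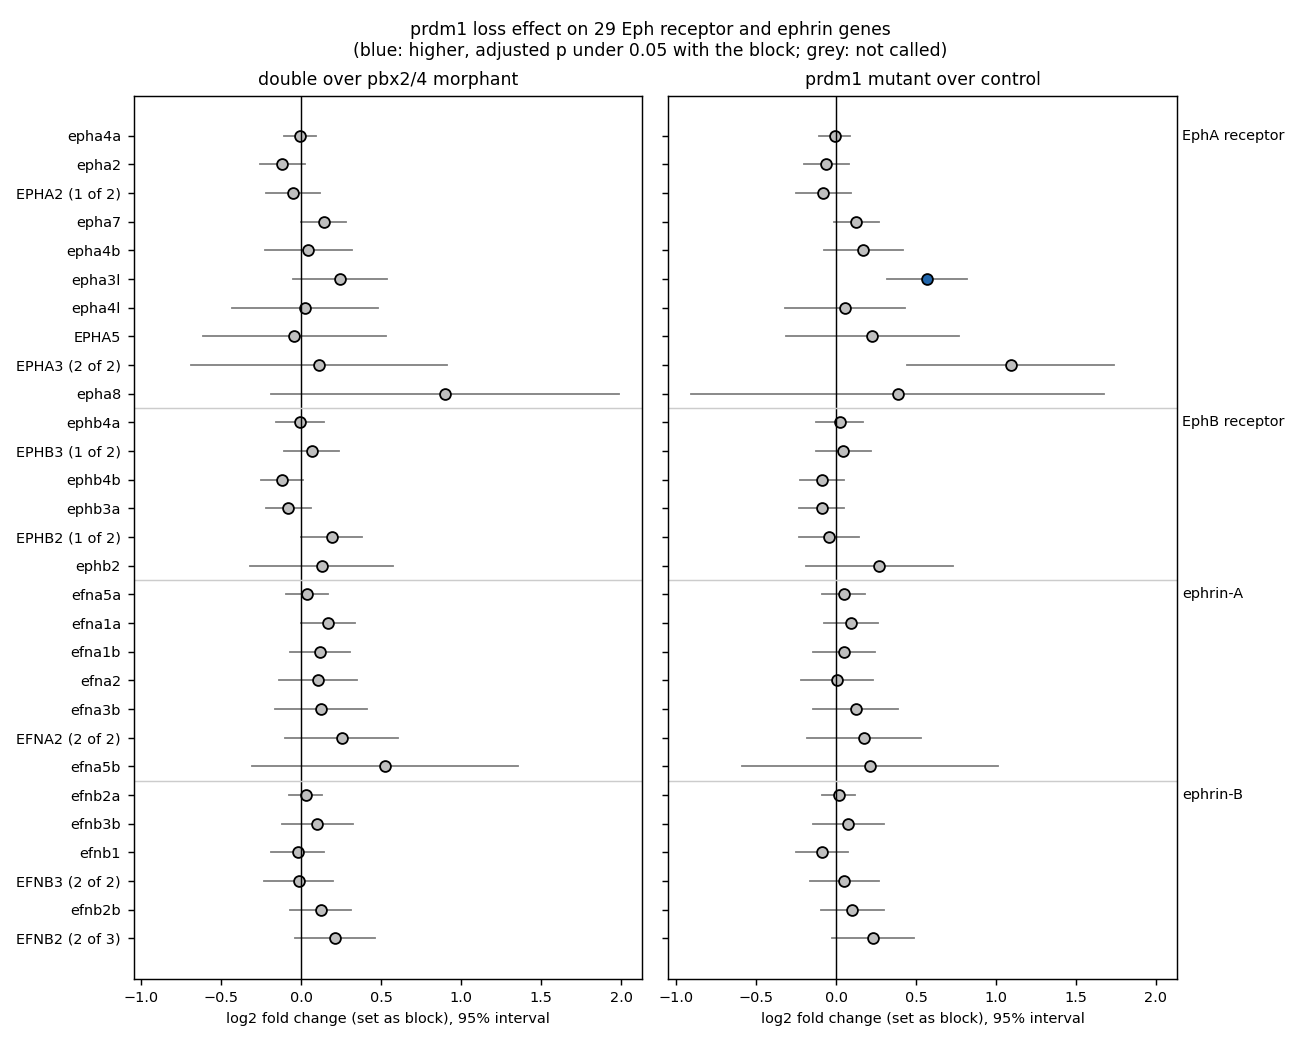
Log2 fold change with the set as a block (horizontal axis) and its 95% interval for the 29 members tested, for double embryos over pbx2/4 morphants and prdm1 mutants over controls. Of all points only epha3l in prdm1 mutants, in blue, was called with the block.

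Genes that act with Eph receptors and ephrins were taken from lists of proteases and phosphatases (11 in the table, 10 tested), of kinases and adaptors (20, all tested) and of PDZ partners (6, all tested). In edgeR's test, over these lists, 1 rose and 1 fell in double embryos against prdm1 mutants, and 1 rose and 0 fell in morphants against controls. The share of all genes called higher was 0.552% in each, and the share called lower was 0.811% and 0.883%. mmp2, a matrix metalloprotease gene, averaged 185 ± 14.7 CPM in double embryos, 182 ± 25.9 CPM in morphants, 71.9 ± 12.7 CPM in prdm1 mutants and 77.8 ± 18.8 CPM in controls (SD, n = 3 each). Its log2 fold changes were 1.37 and 1.23 (SE 0.18 each, adjusted p = 0.00295 and 0.00639). ptprfa, a receptor phosphatase gene of the LAR family, averaged 7.27 ± 1.06 CPM in double embryos, 8.71 ± 0.974 CPM in morphants, 15.6 ± 2.57 CPM in prdm1 mutants and 14.4 ± 0.813 CPM in controls. It fell in double embryos against prdm1 mutants, with a log2 fold change of -1.10 (SE 0.17, adjusted p = 0.00723), and had -0.72 in morphants against controls (adjusted p = 0.0588, 0.00156 with the block).

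With the block 7.22% of all genes were called higher in double embryos against prdm1 mutants and 7.73% in morphants against controls, beside the shares of 8.98% and 9.95% called lower. Of the 10 proteases and phosphatases tested 2 rose, mmp2 and ptpn13, and 2 fell, ptprfa and ptpro, in both comparisons. Of the 6 PDZ partners dvl2 fell in both, grip1 rose in double embryos against prdm1 mutants and sdcbp rose in morphants against controls. The row of sdcbp rested on only 2 to 22 counts per library. Of the kinases and adaptors 4 rose and 5 fell in double embryos against prdm1 mutants, and 2 rose and 2 fell in morphants against controls. ptpro, whose product dephosphorylates Eph receptors in the chick, had log2 fold changes of -0.58 and -0.54 (adjusted p with the block 0.000197 and 0.000355). dvl2, a Dishevelled gene, had -0.47 and -0.39, and rasa1a, which encodes a Ras GTPase-activating protein that binds activated EphB2, had -0.28 and -0.36. Counts of dvl2 were not whole in 9 of 12 libraries and those of ptpro in 4, so levels of these rows are uncertain. The Src-family kinase gene fyna had -0.55 in double embryos against prdm1 mutants, and the adaptor gene nck1 had 0.44 and 0.31. Also called with the block in both were src, which rose, and yes1, which fell. In double embryos against prdm1 mutants abl2 and grb10a rose with the block, and abl1 and nck2a fell. adam17b and crk rose with the block in double embryos against controls. There 3 proteases and phosphatases rose and 2 fell, 4 kinases and adaptors rose and 5 fell, and 1 PDZ partner rose and 1 fell. Of all 18117 genes, 1691 were called higher and 1964 lower in that comparison with the block. The interaction is also the difference between the 2 morpholino effects. In its test by edgeR 0 genes of these lists and 0% of all genes were called, with or without the block. That does not show the effects to be equal. The median log2 fold change was 0.11 and 0.05 for proteases and phosphatases, 0.08 and 0.03 for kinases and adaptors, and -0.08 and -0.01 for PDZ partners, against 0.01 and 0.01 over all genes tested.

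Markers of the hindbrain and of the eye fell in the same comparisons. The 11 hindbrain segment markers in the table summed to 257 to 276 CPM in double embryos, 243 to 284 CPM in morphants, 443 to 494 CPM in prdm1 mutants and 449 to 474 CPM in controls, and 6 fell in each morpholino comparison, against 0.811% and 0.883% of all genes. The 10 eye field and retina markers summed to 186 to 190, 176 to 187, 269 to 303 and 250 to 280 CPM in these groups, and 5 fell in each morpholino comparison. The 15 somite and presomitic markers summed to 3264 to 4326, 3041 to 4430, 3226 to 4126 and 3187 to 3998 CPM. The largest terms of that sum were fn1, fn1b and cdh2, at means of 1002, 897 and 802 CPM over all 12 libraries. Of the 15 markers 0 were called by edgeR without the block. The 6 neural crest and 8 endothelial markers had 0 called as well in these 2 comparisons. With the block 8 hindbrain markers fell in double embryos against prdm1 mutants and 9 in morphants against controls, and 6 eye markers fell in each, while 2 eye markers, rx3 and six3b, rose in double embryos against prdm1 mutants and 1, six3b, in morphants against controls. With the block 4 somite markers rose and 1, cdh2, fell in each. fn1, pcdh8 and ripply1 rose in both, mespb in double embryos against prdm1 mutants and mespa in morphants against controls. The endothelial marker tal1 fell in double embryos against prdm1 mutants. In this fit 8.98% and 9.95% of all genes were called lower in the 2 comparisons, and 7.22% and 7.73% higher. The falls of 1 of 15 somite and 1 of 8 endothelial markers are near these shares. The rises of 4 of 15 somite markers in each comparison are above the shares called higher, and their cause was not tested. No marker of these 5 lists was at 0 in all libraries of a group. The part of the hindbrain and eye in the changes of Eph receptors and ephrins was not tested.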

How the data were processed

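The authors deposited a table of estimated counts for 31051 genes in 12 columns, not normalised. Of all deposited values 13.7% were not whole (tolerance 1e-06), and they were rounded before testing, where the design had assumed whole counts. TopHat 1.4, edgeR and Zv9 are named in the submitters' processing notes. For the counting tool, annotation and strand setting, the sources used here give nothing. Column names show the group and no replicate number. In 4 columns (set A) the group was read from W or M at prdm1, with or without pbx.

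All 12 libraries were fitted together by group in edgeR 4.0.16 (R 4.3.3) with TMM scaling and filterByExpr. The threshold was an adjusted p of 0.05 over 18117 genes, with 8 residual degrees of freedom. The fit with the block had 6. SEs are the absolute log2 fold change over the square root of F. Within-set differences are of log2 CPM with a prior count of 2. DESeq2 1.42.0, limma 3.58.1 (voom), other scalings and filters, and left-out libraries were alternatives. The code was tested on simulated data.

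Deviations from group means correlated at 0.448 to 0.669 across genes for the 18 pairs of libraries of the same set and different groups, and at -0.483 to -0.0299 for 36 pairs of different sets. Deviations of a group cancel out by construction, so positive values for pairs of the same set make those of different sets mostly negative. The negative range is thus no separate evidence for the pairing. The pairing rests on column names and values. The design text describes independent rounds of egg collection and does not tie columns to them. The lowest chi-square per gene between libraries of a group was 11.8, and none were merged. The authors' own comparison tables were not used here. Named in full are members called by either fit and the 5 of highest CPM. One further list of related genes is not reported here. Members and lists were chosen with earlier results of these data known. Total counts limit precision, and floors of 3 counts take in counting error alone.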

Additional observations from a re-analysis of the deposited data

How the results depend on the processing

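With the replicate block, which follows the pairing by set, 1 member was called in prdm1 mutants against controls, 10 in morphants against controls, 9 in double embryos against controls and 9 in double embryos against prdm1 mutants. DESeq2 called 3 members in double embryos against controls and 6 in double embryos against prdm1 mutants. With only the 2 groups compared in the fit, 0, 0 and 1 members were called in morphants against controls, double embryos against controls and double embryos against prdm1 mutants. Leaving out 1 library at a time gave 0 to 1, 0 to 1 and 1 to 2 members in these 3 comparisons. With the block and a whole set left out, an alternative chosen after seeing the data, the 3 comparisons had 7, 7 and 6 members without set A, 9, 9 and 9 without set B, and 9, 6 and 9 without set C. Without set B epha8 was among the 9 in double embryos against controls, as a rise. Apart from the fit with the block on all sets, the share of all genes called in these settings is not given here. These counts are thus not set against all genes here and are not read as a result about the members. The cause of the differences between settings was not tested. Other scalings and filters left the counts of edgeR without the block as they were. The count of 0 in double embryos against morphants and in the interaction held in every setting run. Small changes that were never called turned sign. With the block and a set left out, epha2 had -0.0222 in morphants against controls without set A and 0.0283 in double embryos against prdm1 mutants without set B, and EPHA2 (1 of 2) had 0.00909 and 0.0543 in these comparisons without set C. Leaving out 1 library gave epha2 values of -0.0120 to 0.0202, efnb2a as low as -0.0319 and EPHA2 (1 of 2) as high as 0.0338 in morphants against controls, and EPHA2 (1 of 2) as high as 0.0544 in double embryos against prdm1 mutants. Over all settings EPHA2 (1 of 2) ran from -0.24 to 0.03 in morphants against controls and from -0.19 to 0.05 in double embryos against prdm1 mutants, epha2 from -0.02 to 0.03 and from -0.12 to 0.03, and efnb2a from -0.03 to 0.15 in morphants against controls. All other log2 fold changes of the 14 named members in these comparisons kept their direction. Rows with few counts, such as EPHA3 (2 of 2), epha8 and EPHA5, are limited by depth.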

Other observations

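The row named EPHB3 (1 of 2), an EphB receptor gene, differed between the column-name sets. It had 120 to 136 CPM in the 4 libraries of set A, 48.1 to 64.2 CPM in set B and 60.5 to 61.8 CPM in set C, while its log2 fold changes between groups were small (0.11 in morphants against controls, SE 0.46 without the block and 0.08 with it). efnb3b and epha7 were also highest in set A, at means of 53.3 and 68.4 CPM, against 38.2 and 51.6 CPM in set B and 35.4 and 46.2 CPM in set C.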
